A study of Mus musculus with 12 samples.

Results

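Collagens are the chains from which the fibres and sheets of the extracellular matrix are built, and their transcripts were followed here across 12 Affymetrix arrays of mouse fibroblasts, pluripotent cells and neurospheres. Members were all genes whose single annotated symbol has the collagen form (Col, a number, a, a number). This gave 42 genes of the 18193 genes with a symbol, covered by 82 probe sets. Where a gene had several probe sets, which was the case for 27 genes, the probe set with the highest mean signal over the 12 arrays stood for it. A mean of linear signals is weighted to the brightest array, so this choice can favour a probe set that is high in 1 group. Of the 42 genes, 37 reached a signal of 20 on at least 1 array and were tested. The other 5 (Col19a1, Col4a3, Col4a4, Col6a4 and Col6a5) stayed below 20 on all 12 arrays and were not tested.

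The series compared cultures named directly induced neural stem cells with their starting cells and with neurospheres of other origin. Neurospheres are floating balls of cells grown from neural stem or progenitor cells. Adult fibroblasts were measured on 1 array, and neurospheres from the ganglionic eminence (GE, a zone of the embryonic forebrain) of embryonic day 14 mice on 1 array. The pluripotent cells were the iPS line 38C2 and the ES line EB3, with 1 array each. Primary and secondary neurospheres grown from pluripotent cells had 1 array of iPS and 1 array of ES origin each. Neurospheres derived from adult fibroblasts had 2 arrays, of which replicate 1 received EGF and cAMP and replicate 2 received LIF. Those derived from embryonic fibroblasts had 2 arrays, of which replicate 3 received LIF and replicate 4 both LIF and cAMP. These 4 arrays are called fibroblast-derived below. Neurospheres were kept in a medium named MHM. Embryonic fibroblasts were not analysed here, so the embryonic-derived pair is set against fibroblasts of adult origin. The mice were C57BL/6, the ES and iPS lines excepted. How the fibroblasts were converted is not stated in the labels, which name no transgene and no separate cultures for the arrays within a group. In each group of 2 arrays, the arrays differed in line of origin or in medium. The p-values therefore measure the spread from line and medium together with any technical spread, and not a spread between like replicates.

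A collagen molecule is made of chains wound around each other into a helix. Fibrillar collagens (types I, II, III, V, XI, XXIV and XXVII) assemble into fibrils, and types I, III and V are abundant products of fibroblasts in connective tissue. Type IV chains form the network of basement membranes, and type VI forms beaded filaments around cells. FACIT collagens sit on the surface of fibrils and do not form fibrils alone. In the brain, collagen is mainly found in the meninges and in the basement membranes of vessels, and neural tissue itself contains little fibrillar collagen. Chains are folded and modified in the endoplasmic reticulum by hydroxylases and by the chaperone Serpinh1 (HSP47), trimmed outside the cell, and crosslinked by lysyl oxidases.

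Col4a1 and Col4a2 encode the main chains of basement membrane collagen and are transcribed away from each other from a shared region. Their promoter windows are printed because the signals of both genes were high and low on much the same arrays. Those of Col1a2 and Col3a1, the fibrillar genes with the highest mean signals, are printed for comparison. Each window runs from 250 bases before to 50 bases after the gene's start and is written 5′ to 3′ on the gene's strand, from RefSeq on GRCm38.p6. Capitals mark matches on either strand to 3 motifs. The TATA box was searched as TATAAA. The box named for its letters was searched as CCAAT, and the GC box was searched as GGGCGG. The marked matches do not overlap each other. The windows lie at chr8:11312777-11313076 on the minus strand for Col4a1, chr8:11312555-11312854 on the plus strand for Col4a2, chr6:4505368-4505667 on the plus strand for Col1a2 and chr1:45311288-45311587 on the plus strand for Col3a1.
Col4a1: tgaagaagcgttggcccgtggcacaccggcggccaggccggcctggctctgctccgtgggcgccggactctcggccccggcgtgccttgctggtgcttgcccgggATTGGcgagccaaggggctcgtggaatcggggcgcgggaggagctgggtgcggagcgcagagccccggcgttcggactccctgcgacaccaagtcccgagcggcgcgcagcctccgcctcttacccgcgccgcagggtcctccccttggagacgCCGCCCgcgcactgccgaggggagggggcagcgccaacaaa
Col4a2: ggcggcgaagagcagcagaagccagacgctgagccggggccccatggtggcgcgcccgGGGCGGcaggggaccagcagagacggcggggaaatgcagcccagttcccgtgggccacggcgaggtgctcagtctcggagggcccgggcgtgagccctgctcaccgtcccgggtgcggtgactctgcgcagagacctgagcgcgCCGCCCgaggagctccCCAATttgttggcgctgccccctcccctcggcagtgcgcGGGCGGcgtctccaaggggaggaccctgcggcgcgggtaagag
Col1a2: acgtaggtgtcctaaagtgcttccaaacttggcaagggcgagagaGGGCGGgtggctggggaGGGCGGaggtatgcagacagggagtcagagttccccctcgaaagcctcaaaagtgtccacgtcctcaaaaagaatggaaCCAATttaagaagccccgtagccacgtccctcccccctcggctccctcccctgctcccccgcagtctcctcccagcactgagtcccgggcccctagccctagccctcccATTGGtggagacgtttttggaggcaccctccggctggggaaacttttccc
Col3a1: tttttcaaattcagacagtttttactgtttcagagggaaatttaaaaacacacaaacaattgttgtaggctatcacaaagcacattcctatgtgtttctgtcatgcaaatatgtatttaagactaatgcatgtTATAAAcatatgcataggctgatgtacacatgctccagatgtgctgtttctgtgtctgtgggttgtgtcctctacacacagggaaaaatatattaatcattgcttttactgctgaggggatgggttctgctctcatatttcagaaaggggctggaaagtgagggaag

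The Col4a1 and Col4a2 windows overlapped by 78 bases, and the starts they are built on lay 21 bases apart. GC content was 74.0% for Col4a1 and 73.7% for Col4a2, against 61.0% for Col1a2 and 37.7% for Col3a1. Col3a1 held the only TATAAA match among the 4 windows. The promoter table held 36 windows of 33 of the 42 members. TATAAA occurred in 13.9% of those windows and in 13.6% of all 32851 windows of that length. CCAAT occurred in 36.1% and 37.4%, and GGGCGG in 61.1% and 35.7%. These shares are descriptions of the letters, with no test.

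Each value below is a signal intensity on MAS5's linear scale, and every array had a 2%-trimmed mean of 100. Signals of different genes come from different probes and were not set against each other. The adult fibroblasts had the highest signal of the 12 arrays for 19 of the 37 tested members, the ES-derived secondary neurospheres for 7 and the GE neurospheres for 4. Signals of 100 or more were read for 17 of the 42 members in the fibroblasts and for 19 in the ES-derived secondary neurospheres, but for 1 in ES cells. On the remaining arrays the number ranged from 4 to 12. Among the fibroblast-derived arrays, replicate 1 of the adult-derived pair had the lowest signal for 26 of the 37 members, and it was the lowest of the 4 for 32.9% of all genes tested. The ES-derived secondary array exceeded the iPS-derived one for 32 of the 37 members, against 51.4% of all genes. These patterns by array stand out in the plot of all members.

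**Figure D1:**
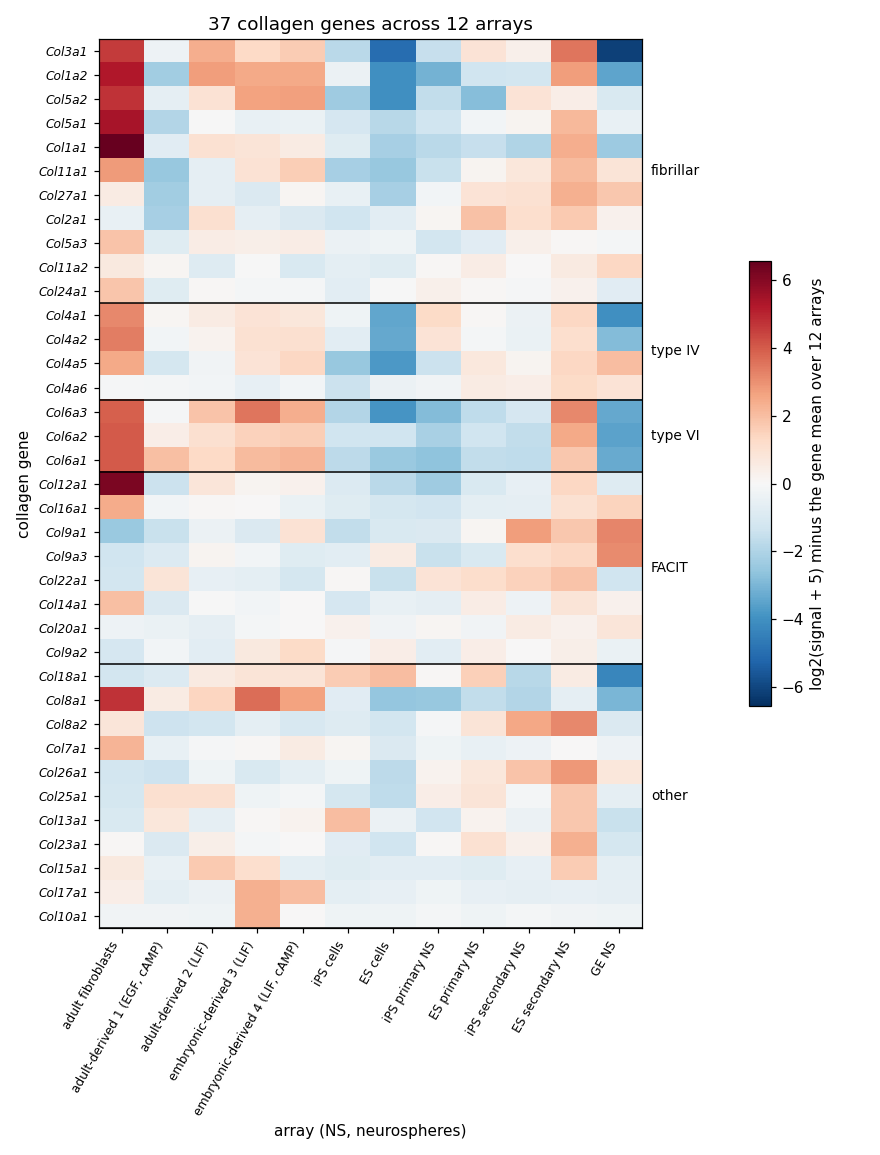
Heat map of the 37 tested collagen genes (rows, by class and mean signal) on the 12 arrays (columns). Colour gives log2(signal + 5) minus the gene's mean over the arrays, red above and blue below it. The fibroblast column is the highest for 19 genes, and the GE and ES cell columns are blue across many fibrillar, type IV and type VI chains.

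Sums of cell type markers also varied between the arrays. The summed signal of 8 fibroblast markers was 18423 in the fibroblasts, 428.8 and 1714 in the adult-derived pair, and 1043 and 1244 in the embryonic-derived pair. It was 158.7 in iPS and 65.3 in ES cells, 119.2 and 300.9 in iPS and ES primary neurospheres, 1128 and 3522 in iPS and ES secondary neurospheres and 969.2 in GE neurospheres. All 8 reached 20 in the fibroblasts, while 3 of 8 were below 20 on adult-derived replicate 1, 2 in iPS secondary and 4 in GE neurospheres. Single genes made up much of these sums. Pdgfra alone gave 768.8 in iPS secondary and 454.3 in GE neurospheres, where Thy1 gave 246.8. Postn alone gave 1970 in ES secondary neurospheres and 640.6 on adult-derived replicate 2. Prrx1 gave 222.4 to 646.6 on the fibroblast-derived arrays. The sum over 7 pericyte and smooth muscle markers was 14324 in the fibroblasts, 342.5 to 1097 on the fibroblast-derived arrays and 44.4 to 420.8 elsewhere. Pluripotency markers summed to 13188 and 13859 in iPS and ES cells, 2260 to 6631 on the fibroblast-derived arrays, 3545 in ES primary neurospheres and 20.3 to 211.9 on the others. Neural stem cell markers summed to 73.5 in the fibroblasts, 829.5 to 2374 on the fibroblast-derived arrays and 3511 and 3541 in iPS and ES cells. They summed to 9002 to 13101 in the primary and secondary neurospheres and 16948 in GE neurospheres. Of these sums, Sox2 alone gave 85.6 and 791.4 in the adult-derived pair and 1826 and 2092 in the embryonic-derived pair. It gave 3353 and 3418 in iPS and ES cells. The sum of 5 macrophage markers was 1866 on embryonic-derived replicate 3 and 30 to 687.9 elsewhere. The part of these cells in the collagen signals was not tested. In these bulk RNA samples, fewer cells of a type and less RNA per cell cannot be told apart.

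Among the fibrillar chains, types I and III had their highest signal in the fibroblasts and differed widely between the adult-derived and between the secondary arrays. Col1a1, which supplies most chains of type I collagen, read 2733 in the fibroblasts, 12.5 and 53.7 in the adult-derived pair, and 46.6 and 36.7 in the embryonic-derived pair. Its signal was 12 in iPS and 1.4 in ES cells, 3.6 and 5.0 in iPS and ES primary neurospheres, 2.4 and 146.9 in iPS and ES secondary neurospheres and 0.5 in GE neurospheres. Apart from the fibroblasts, only the ES-derived secondary array passed 100 on this probe set. On the other Col1a1 probe set, adult-derived replicate 2 (108.5) and embryonic-derived replicate 3 (133.1) passed 100 too. The ES-derived secondary array read 389.2 there. Col1a2, the partner chain of type I, read 8334 in the fibroblasts, 39.5 and 1449 in the adult-derived pair, and 1236 and 1195 in the embryonic-derived pair. It read 162.8 in iPS and 8.3 in ES cells, 20.8 and 83.8 in the primary, 90.8 and 1454 in the secondary and 14.8 in GE neurospheres. Adult-derived replicate 1 lay far below the other 3 fibroblast-derived arrays for Col1a2, and below the iPS cells.

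Col3a1, the chain of type III collagen of extensible tissues, read 8772 in the fibroblasts, 286.2 and 1947 in the adult-derived pair, and 929.5 and 1186 in the embryonic-derived pair. It read 105.7 in iPS and 6.7 in ES cells, 125.8 and 686.8 in the primary, 464.3 and 4165 in the secondary and 0.4 in GE neurospheres. No fibroblast-derived array overlapped the pluripotent cells, and the ES-derived secondary array lay above all 4. Col5a1 and Col5a2 are chains of type V, which starts the assembly of type I fibrils. Col5a1 read 3945 in the fibroblasts, 19.5 and 86.7 in the adult-derived pair, and 62.3 and 63.6 in the embryonic-derived pair. It read 38.9 in iPS and 21.2 in ES cells, 32.5 and 77.1 in the primary, 101.1 and 397.0 in the secondary and 60.5 in GE neurospheres. Its signal in the fibroblasts was far above that on any other array. Col5a2 read 6733 in the fibroblasts, 160.1 and 479.3 in the adult-derived pair, and 1529 and 1596 in the embryonic-derived pair. It read 44.3 in iPS and 10.4 in ES cells, 74.8 and 31.3 in the primary, 453.8 and 325.6 in the secondary and 117.4 in GE neurospheres. Both type V chains thus had their highest signal in the fibroblasts, and for Col5a2 the embryonic-derived pair came next.

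Some fibrillar chains are better known from cartilage. Col11a1, a chain of type XI, read 389.2 in the fibroblasts, 5.4 and 33.4 in the adult-derived pair, and 106.6 and 171.3 in the embryonic-derived pair. It read 7.8 in iPS and 5.3 in ES cells, 15.6 and 59.5 in the primary, 89.9 and 234.5 in the secondary and 99.4 in GE neurospheres. Its adult-derived arrays overlapped the pluripotent cells, while the embryonic-derived ones did not. Col11a2, another type XI chain, read 29.7 in GE neurospheres, 10.3, 2.7, 8.4 and 1.8 on the fibroblast-derived arrays, 16.6 in the fibroblasts, 3.7 and 2.9 in iPS and ES cells, 9.7 and 14.6 in the primary and 9.1 and 15.4 in the secondary neurospheres. Col27a1, a fibrillar chain of cartilage, read 149.1 in GE neurospheres, 83.3 and 216.7 in the secondary and 34.0 and 77.8 in the primary neurospheres. It read 58.7 in the fibroblasts, 4.1 and 24.3 in the adult-derived pair, 18.3 and 44.2 in the embryonic-derived pair, 27.0 in iPS and 5.0 in ES cells. Of 7 chondrocyte markers, at least 5 were below 20 on every array.

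Type IV signals were present in the neurospheres from pluripotent cells and from fibroblasts, and low in GE neurospheres for the main chains. Col4a1 read 4073 in the fibroblasts, 487.8 and 652.7 in the adult-derived pair, and 822.2 and 745.4 in the embryonic-derived pair. It read 363.0 in iPS and 38.1 in ES cells, 1064 and 468.8 in the primary, 339.1 and 1172 in the secondary and 22.3 in GE neurospheres. Col4a2 read 1994 in the fibroblasts, 163.6 and 221.8 in the adult-derived pair, and 378.5 and 403.2 in the embryonic-derived pair. It read 115.0 in iPS and 14.1 in ES cells, 356.5 and 171.2 in the primary, 140.4 and 407.1 in the secondary and 21.7 in GE neurospheres. For both genes the iPS-derived array was the higher of the primary pair and the ES-derived array the higher of the secondary pair. Col4a5, a chain of the basement membranes of kidney, lung and eye, differed in GE neurospheres, where it read 490.7. Its other signals were 675.1 in the fibroblasts, 49.6 and 100.5 in the adult-derived pair, 223.8 and 305.8 in the embryonic-derived pair, 17 in iPS and 4.1 in ES cells, 41.3 and 189.0 in the primary and 131.4 and 311.8 in the secondary neurospheres. Col4a6 stayed between 1.4 and 36.5. Markers of parietal and primitive endoderm, cells that make much type IV collagen, summed to 328.9 in the fibroblasts, 464.6 in iPS and 176.9 in ES cells. They summed to 61.4 in GE neurospheres, 565.7 to 890.4 in the primary and secondary neurospheres and 189.1 to 498.8 on the fibroblast-derived arrays. Of these sums, Foxa2 alone gave 290 and 266.4 in the iPS and ES primary and 534 and 655.8 in the secondary neurospheres. It read 1.1 to 28.7 elsewhere. Endothelial markers summed to 334.4 to 986.1 on the fibroblast-derived arrays and 40.8 to 172.1 elsewhere. Of these sums, Tek alone gave 242.8, 249.1, 364 and 854.3 on the fibroblast-derived arrays and 1.5 to 72.1 elsewhere. On the fibroblast-derived arrays 2 to 5 of the 7 endothelial markers were below 20. The part of endodermal and endothelial cells in the type IV signals was not tested.

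The 3 tested type VI chains read above 100 on all fibroblast-derived arrays. Col6a1 read 1291 in the fibroblasts, 305.2 and 192.0 in the adult-derived pair, and 326.5 and 367.2 in the embryonic-derived pair. It read 19.4 in iPS and 9.9 in ES cells, 7.5 and 20.5 in the primary, 19.7 and 268.1 in the secondary and 3.1 in GE neurospheres. Col6a2 read 1515 in the fibroblasts, 120.2, 192.2, 267.4 and 288.1 on the fibroblast-derived arrays, 33.0 and 33.6 in iPS and ES cells, 16.4 and 33.3 in the primary, 25.7 and 519.2 in the secondary and 3.3 in GE neurospheres. The fibroblast-derived arrays lay above the pluripotent, primary, GE and iPS-derived secondary arrays for both chains. Col6a3, the long chain of type VI, read 2211 in the fibroblasts, 133.8 and 524.2 in the adult-derived pair, and 1629 and 756.5 in the embryonic-derived pair. It read 32.3 in iPS and 4.9 in ES cells, 14.9 and 40 in the primary, 60.9 and 1282 in the secondary and 8.9 in GE neurospheres. The ES-derived secondary array overlapped the fibroblast-derived range for Col6a1 and Col6a3 and exceeded it for Col6a2.

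**Figure D2:**
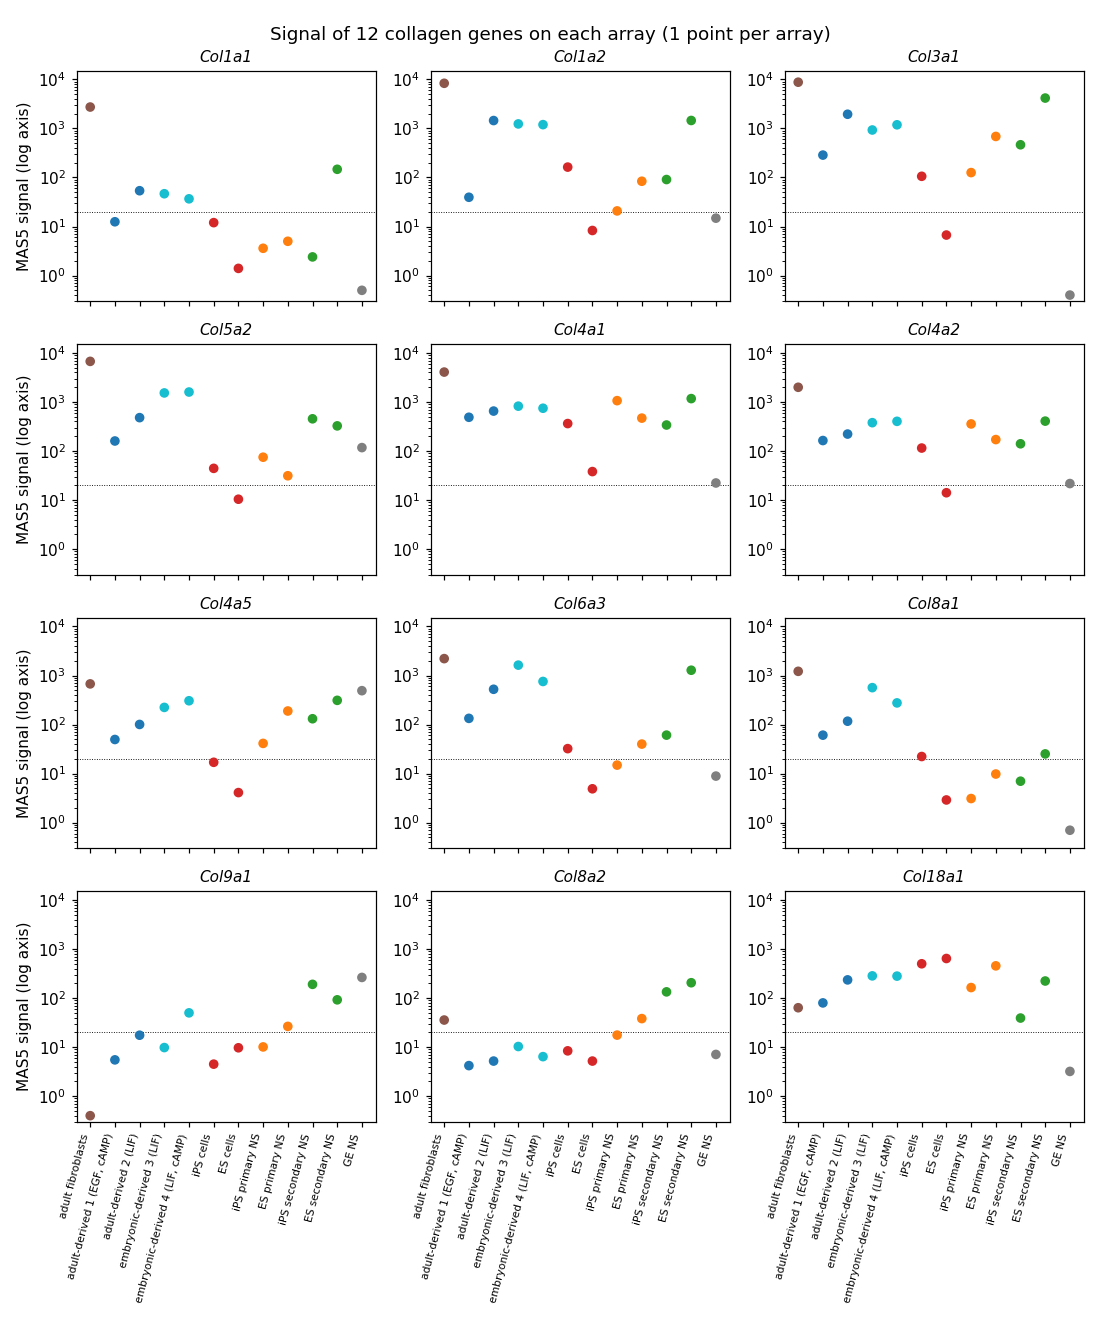
Signal of 12 collagen genes on each array, 1 point per array, on a log axis. The dotted line marks a signal of 20. The ES-derived secondary array stands above the iPS-derived one for Col1a1, Col1a2, Col3a1 and Col6a3, and GE neurospheres read below 20 for these genes but 490.7 for Col4a5 and 263.9 for Col9a1.

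Among FACIT collagens, Col12a1 and Col16a1 had their highest signal in the fibroblasts, and the type IX chains Col9a1 and Col9a3 in GE neurospheres. Col12a1, found on type I fibrils of tendon and skin, read 3239 in the fibroblasts, 11.5 and 71.6 in the adult-derived pair, and 45.8 and 49.5 in the embryonic-derived pair. It read 19.0 in iPS and 8.1 in ES cells, 4.0 and 17.1 in the primary, 25.7 and 107.6 in the secondary and 20.1 in GE neurospheres. Col16a1 read 325.3 in the fibroblasts, 162.7 in GE neurospheres, 47.6, 59.3, 57.3 and 39.4 on the fibroblast-derived arrays, 30.2 and 22.3 in iPS and ES cells, 20.7 and 33.6 in the primary and 35.5 and 115.0 in the secondary neurospheres. Col16a1 alone of this pair also passed 100 in GE neurospheres. Col9a1, a type IX chain of cartilage and of the vitreous of the eye, read 263.9 in GE neurospheres, 190.7 and 92.2 in the secondary and 10.1 and 26.5 in the primary neurospheres. It read 0.4 in the fibroblasts, 5.5, 17.5, 9.8 and 50 on the fibroblast-derived arrays and 4.5 and 9.7 in iPS and ES cells. Col9a3, its partner chain, read 143.4 in GE neurospheres, 31.9 and 40.1 in the secondary, 1.4 and 3.7 in the primary, 4.2 to 14.9 on the fibroblast-derived arrays, 1.9 in the fibroblasts and 5.9 and 19.9 in iPS and ES cells. GE and secondary neurospheres thus stood above all fibroblast-derived arrays for both, while the remaining type IX chain, Col9a2, reached 24.2 at most. Col22a1, a collagen of tissue junctions, read 40.8 and 53.9 in the secondary, 24.5 and 30.2 in the primary and 24.3, 5.9, 5.2 and 2.2 on the fibroblast-derived arrays. It read 1.4 in GE neurospheres, 2.0 in the fibroblasts, 12.1 in iPS and 0.9 in ES cells.

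The remaining collagens showed the most varied patterns. Col8a1 and Col8a2 are short chains of type VIII, known from vessel walls and from the membrane beneath the corneal endothelium. Col8a1 read 1218 in the fibroblasts, 60.8 and 117.1 in the adult-derived pair, and 566.0 and 276.4 in the embryonic-derived pair. It read 22.3 in iPS and 2.9 in ES cells, 3.1 and 9.8 in the primary, 7.0 and 25.2 in the secondary and 0.7 in GE neurospheres. Col8a2 read 134.0 and 205.8 in the secondary and 17.6 and 38.2 in the primary neurospheres, 35.7 in the fibroblasts, 4.2 to 10.3 on the fibroblast-derived arrays, 8.4 and 5.2 in iPS and ES cells and 7.1 in GE neurospheres. The type VIII chains were therefore high on different arrays. Col18a1, a basement membrane chain from which endostatin is cut, read 501.1 in iPS and 642.1 in ES cells, 164.1 and 454.7 in the primary and 39.2 and 223.1 in the secondary neurospheres. It read 63.6 in the fibroblasts, 79.8, 235.2, 283.9 and 280.8 on the fibroblast-derived arrays and 3.2 in GE neurospheres.

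A further 3 members stayed below 100 on nearly all arrays. Col17a1, a transmembrane collagen that anchors epidermal cells, read 36.9 and 28.9 in the embryonic-derived pair and 0.4 to 6.5 on all others. Col25a1, a transmembrane collagen of neurons, read 33.5 and 32.9 in the adult-derived pair, 10 and 12 in the embryonic-derived pair, 3.3 and 0.8 in iPS and ES cells, 19.6 and 27.9 in the primary, 11.9 and 56.8 in the secondary, 7.3 in GE neurospheres and 3.4 in the fibroblasts. Col26a1 read 69.8 and 137.7 in the secondary, 18.8 and 29.0 in the primary and 28.1 in GE neurospheres, 2.9 to 11.6 on the fibroblast-derived arrays, 3.7 in the fibroblasts, 11.6 in iPS and 1.2 in ES cells.

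Differences were tested with limma on log2(signal + 5) in 1 fit of all 12 arrays, and a gene was called at an adjusted p under 0.05 over the 13627 genes tested. The scale understates differences of dim genes. A group of 1 array was assumed to vary like the groups of 2. The first 4 comparisons below share the fibroblast-derived arrays, and others share the pluripotent, primary or secondary arrays, so their results are not independent. The fibroblast-derived side is the equal mean of the adult-derived and embryonic-derived pairs. Differences are log2 values with their standard errors. Scaling every array to a common median in place of MAS5's trimmed mean moved the median difference over all genes from 0.22 to -0.01 against the fibroblasts and from 0.16 to -0.23 against the pluripotent cells. In primary neurospheres against pluripotent cells it moved from 0.05 to -0.25. The share of called genes that were higher then moved from 64.6% to 47.3%, from 67.6% to 35.7% and from 64.0% to 39.4%. No called member changed direction under either alternative scaling. The filter kept 6 members through 1 group alone: Col10a1, Col17a1 and Col9a2 through the embryonic-derived pair, Col11a2 and Col20a1 through the GE array and Col24a1 through the fibroblasts. Their being higher in that group was set by the filter, so their calls stand in the counts as descriptions, with no p given.

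Against the adult fibroblasts, 12 collagens were lower in the fibroblast-derived neurospheres, most of all Col12a1, Col1a1 and Col5a1. Of the 37 tested members 12 fell and 0 rose by limma's adjusted p, and 16 were lower and 3 higher at an unadjusted p under 0.05. Over all genes tested, 8.23% fell and 15% rose. The members' median difference was -1.85, against 0.22 over all genes. Among the 11 fibrillar chains 6 fell, with 3 of 8 FACIT chains, 3 of 11 others, 0 of 4 type IV and 0 of 3 type VI chains. At an unadjusted p under 0.05, 3 type IV and 1 type VI chain were lower. Col12a1 fell by 6.23 ± 0.93 (44.6 ± 24.8 SD, n = 4, against 3239, adjusted p = 0.00334). Col1a1 fell by 6.15 ± 1.36 (adjusted p = 0.0140) and Col5a1 fell by 6.12 ± 0.85 (adjusted p = 0.00260). Col5a2 fell by 3.34 ± 0.73 (adjusted p = 0.0133) and Col11a1 by 2.90 ± 0.83 (adjusted p = 0.0372). On the probe set with the next highest mean signal, the differences were -5.54 for Col12a1, -5.06 for Col1a1 and -4.98 for Col5a1. They were -3.10 for Col5a2 and -3.09 for Col11a1. Col8a1, Col16a1, Col14a1, Col7a1 (the chain of the anchoring fibrils of skin), Col24a1, Col8a2 and Col5a3 made up the remaining 7, with differences from -2.69 to -1.72.

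Several collagens of types I, III, IV and VI did not pass the test, although all 4 fibroblast-derived arrays lay below the fibroblasts. The difference was -3.90 ± 2.05 for Col1a2 (adjusted p = 0.201) and -3.30 ± 1.58 for Col3a1 (adjusted p = 0.164). It was -2.61 ± 1.03 for Col4a1, -2.85 ± 0.90 for Col4a2 and -2.01 ± 1.45 for Col6a3, with adjusted p of 0.103, 0.0513 and 0.35. The type I chains had differences of -6.15 for Col1a1 and -3.90 for Col1a2 on these probe sets, but -5.06 and -5.55 on the next probe set of each, so the order of the 2 genes turns with the probe set. With line of origin as a block, Col4a2 had an adjusted p of 0.0435 and was called. Without embryonic-derived replicate 4, 7 members fell in place of 12, and 8 fell without replicate 3. With the embryonic-derived pair alone 6 fell and 2 rose. Col10a1, Col17a1 and Col9a2 passed the filter through that pair alone, so any rise of these genes there was set by the filter. Calls for Col12a1, Col16a1, Col1a1, Col5a1 and Col7a1 held under every alternative tried, while that for Col8a1 was lost without any 1 of the 4 fibroblast-derived arrays. The fibroblast group itself was 1 array, so no alternative left it out.

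**Figure D3:**
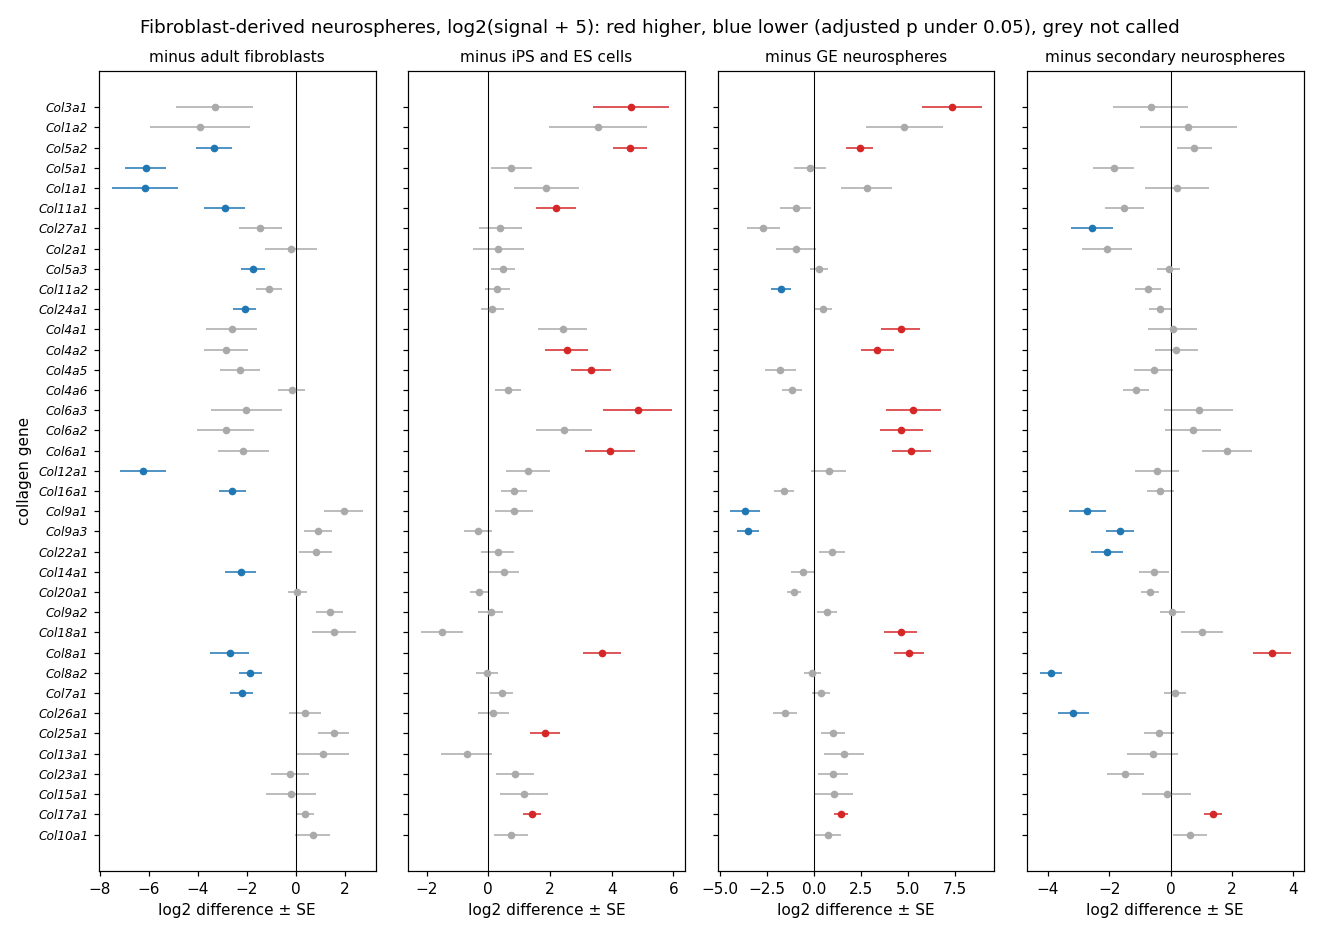
Log2 difference (points) with its standard error (bars) of each tested collagen gene between the fibroblast-derived neurospheres and 4 other groups, in 1 panel each. Red marks genes called higher, blue genes called lower and grey genes not called. Col8a1 is blue against the fibroblasts and red in the other panels.

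Compared with the pluripotent cells, 10 collagens were higher in the fibroblast-derived neurospheres, among them Col6a3, Col3a1, Col5a2, Col6a1 and Col8a1. Of the 37 tested members 10 rose and 0 fell by limma's adjusted p (12 and 0 at an unadjusted p under 0.05), against 20.4% and 9.79% of all genes, which put the members' share of 27.0% near the background. The median difference was 0.83 for the members and 0.16 over all genes. Called higher were 3 of 11 fibrillar, 2 of 4 type IV, 2 of 3 type VI, 0 of 8 FACIT (0 also without adjustment) and 3 of 11 other chains. Col6a3 rose by 4.84 ± 1.12 (adjusted p = 0.0140) and Col3a1 by 4.63 ± 1.22 (adjusted p = 0.0223). Col5a2 rose by 4.59 ± 0.56 (adjusted p = 0.000997), Col6a1 by 3.95 ± 0.81 (adjusted p = 0.00862) and Col8a1 by 3.69 ± 0.61 (adjusted p = 0.00370). Col4a5, Col4a2, Col11a1, Col25a1 and Col17a1 were the others, from 3.33 to 1.42, and the groups overlapped for Col11a1 and Col17a1. Col1a2 differed by 3.56 ± 1.59 (adjusted p = 0.123) and Col1a1 by 1.89 ± 1.05 (adjusted p = 0.205). Col18a1 was lower by 1.5 ± 0.68 without passing the test (219.9 ± 96.0 SD, n = 4, against 571.6 ± 99.7 SD, n = 2, adjusted p = 0.130). With line of origin as a block, Col4a1 and Col6a2 were called higher and Col18a1 lower, with adjusted p of 0.0437, 0.0293 and 0.0434.

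The ES array weighed on this count. Without it 3 members were called (Col17a1, Col5a2 and Col8a1), and without adult-derived replicate 2 or embryonic-derived replicate 3 there were 6. With the adult-derived pair alone 5 were called. Calls for Col5a2 and Col8a1 held under every alternative tried. Col17a1 passed the filter through the embryonic-derived pair alone, so its being higher in that pair was set by the filter.

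Against GE neurospheres, Col3a1, the 3 tested type VI chains, Col4a1, Col4a2, Col8a1 and Col18a1 were higher in the fibroblast-derived neurospheres, and Col9a1 and Col9a3 were lower. Of the 37 tested members 10 rose and 3 fell, against 15.7% and 12.8% of all genes tested. At an unadjusted p under 0.05 the split was 11 higher and 7 lower. The median difference was 0.74 for the members and 0.07 over all genes. All 3 tested type VI chains rose, as did 2 of 4 type IV, 2 of 11 fibrillar and 3 of 11 other chains. Col3a1 rose by 7.37 ± 1.58 (adjusted p = 0.00971) from a GE signal of 0.4. Col6a3 rose by 5.31 ± 1.45 (adjusted p = 0.0260), Col6a1 by 5.19 ± 1.04 (adjusted p = 0.00745) and Col6a2 by 4.67 ± 1.17 (adjusted p = 0.0181). Col8a1 rose by 5.06 ± 0.79 (adjusted p = 0.00249), Col18a1 by 4.63 ± 0.88 (adjusted p = 0.00596) and Col4a1 by 4.62 ± 1.03 (adjusted p = 0.0117). The GE signals of Col3a1, Col6a1, Col6a2, Col8a1 and Col18a1 lay below the added 5, so the sizes of these differences rest on it, and Col8a1 ranged from 2.87 to 6.76 over the alternatives. Col4a2 and Col5a2 rose by 3.38 and 2.44. Col17a1, called at 1.42, had overlapping groups. Col9a1 fell by 3.68 ± 0.79 (adjusted p = 0.00979) and Col9a3 fell by 3.52 ± 0.59 (adjusted p = 0.00331). Col11a2, the third called lower, had a difference of -1.77 and reached 20 on the GE array alone. The sizes also turned with the probe set. On the next brightest probe set the differences were 3.76 for Col3a1, 1.56 for Col6a2, 2.49 for Col8a1 and 3.20 for Col18a1. They were 3.24 for Col4a1, 1.15 for Col5a2, -1.26 for Col9a1 and -3.85 for Col9a3. With the mean of all probe sets, the calls for Col5a2 and Col6a2 were lost. Col1a2 differed by 4.81 ± 2.05 (adjusted p = 0.112) and Col4a5 by -1.80 ± 0.82 (adjusted p = 0.133). With line of origin as a block, Col16a1, Col20a1 and Col4a6 were also called lower, at -1.60, -1.08 and -1.17. Calls for Col3a1, Col4a1, Col6a1, Col8a1, Col18a1, Col9a1 and Col9a3 held under every alternative tried. The GE group was 1 array, so leaving it out was not possible.

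Against the secondary neurospheres, Col8a1 was higher and Col8a2, Col26a1, Col9a1, Col27a1, Col22a1 and Col9a3 were lower in the fibroblast-derived neurospheres. Of the 37 tested members 2 rose and 6 fell (5.41% and 16.2%), which is at or below the 17% and 16.7% of all genes tested. At an unadjusted p under 0.05, 3 were higher and 12 lower. Without the ES-derived secondary array the calls turned to 4 higher and 3 lower (7 and 5 without adjustment). The median difference was -0.39 for the members and 0.05 over all genes. Col8a1 rose by 3.32 ± 0.61 (255.1 ± 226 SD, n = 4, against 16.1 ± 12.9 SD, n = 2, adjusted p = 0.00439). Col17a1, called at 1.39, had overlapping groups. Col8a2 fell by 3.92 ± 0.36 (6.53 ± 2.66 SD, n = 4, against 169.9 ± 50.8 SD, n = 2, adjusted p = 0.000165). Col26a1 fell by 3.18 ± 0.51 (adjusted p = 0.00216), Col9a1 by 2.72 ± 0.61 (adjusted p = 0.0106) and Col27a1 fell by 2.57 ± 0.69 (adjusted p = 0.0214). Col22a1 fell by 2.07 and Col9a3 by 1.66. Col1a1, Col1a2 and Col3a1 did not pass the test, and the iPS and ES arrays of the secondary group lay far apart for these genes. Their differences were 0.20 ± 1.05 for Col1a1, 0.58 ± 1.59 for Col1a2 and -0.65 ± 1.22 for Col3a1, with adjusted p of 0.897, 0.805 and 0.711. With 1 secondary array left out, these differences changed sign, as given in the closing section. Calls for Col8a2 and Col26a1 held under every alternative tried. With line of origin as a block, Col4a6 and Col5a1 were also called lower, at -1.12 and -1.86. The 2 rises were lost with the adult-derived pair alone.

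Primary neurospheres from pluripotent cells differed from those cells in 3 members, all higher (7 higher and 0 lower at an unadjusted p under 0.05 by limma). These are 8.11% of the members tested, below the 19.3% of all genes that were higher. Over all genes 10.9% were lower. Col4a5 rose by 2.74 ± 0.73 (115.2 ± 104 SD against 10.6 ± 9.12 SD, n = 2 each, adjusted p = 0.0241). Col25a1 rose by 2.04 ± 0.56 (adjusted p = 0.0272) and Col8a2 by 1.42 ± 0.41 (adjusted p = 0.0333). Col4a1 and Col4a2 differed by 2.50 ± 0.92 and 2.40 ± 0.81, with adjusted p of 0.0713 and 0.0528. The iPS and ES arrays come from the same lines in each group. With that origin as a block, 5 members were called, Col4a2 and Col4a6 being added with adjusted p of 0.0441 and 0.0364. Without the ES cell array or the ES-derived primary array 0 members were called, and without the iPS cell array 6 were. At an unadjusted p under 0.05 the counts were 5 members without the ES cell array and 4 without the ES-derived primary array.

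Secondary neurospheres differed from primary ones in 2 members, both higher (12 higher and 0 lower at an unadjusted p under 0.05 by limma), against 2% of all genes higher and 0.793% lower. Col8a2 rose by 2.45 ± 0.41 (169.9 ± 50.8 SD against 27.9 ± 14.6 SD, n = 2 each, adjusted p = 0.0246). Col9a3 rose by 2.45 ± 0.52 (36.0 ± 5.80 SD against 2.55 ± 1.63 SD, n = 2 each, adjusted p = 0.0484). The median difference of the members was 1.15, against -0.01 over all genes. Col6a3, Col1a2 and Col9a1 differed by 3.28 ± 1.30, 2.97 ± 1.83 and 2.66 ± 0.71, with adjusted p of 0.202, 0.408 and 0.0832. With line of origin as a block Col5a2 was also called, at 2.86 (adjusted p = 0.0245). Neither call held in every fit with a single array left out. That for Col8a2 was lost without the iPS-derived primary, either secondary or either embryonic-derived array, and kept in the other such fits. That for Col9a3 was kept only without either of the pluripotent arrays.

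Within the fibroblast-derived arrays, the embryonic-derived pair differed from the adult-derived pair in 1 member, which was higher (6 were higher and 0 lower at an unadjusted p under 0.05 by limma), against 0.404% of all genes higher and 0.066% lower. It was Col17a1, with 32.9 ± 5.66 SD against 0.95 ± 0.78 SD (n = 2 each) and a difference of 2.67. Col17a1 reached 20 in the embryonic-derived pair alone, so this direction was set by the filter. Source age differs between the pairs, and medium differs both between and within them, so this comparison cannot tell them apart. Only adult-derived replicate 2 and embryonic-derived replicate 3 shared a medium (LIF), with 1 array each. The call was lost without any of 7 single arrays, with log2(signal + 1) and with these 4 arrays alone. The largest differences that did not pass the test included Col11a1, at 2.81, Col5a2, at 2.47, and Col1a2, at 2.26 ± 1.83. The pairs did not overlap for Col11a1 and Col5a2, while for Col1a2 adult-derived replicate 1 was the low array.

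**Figure D4:**
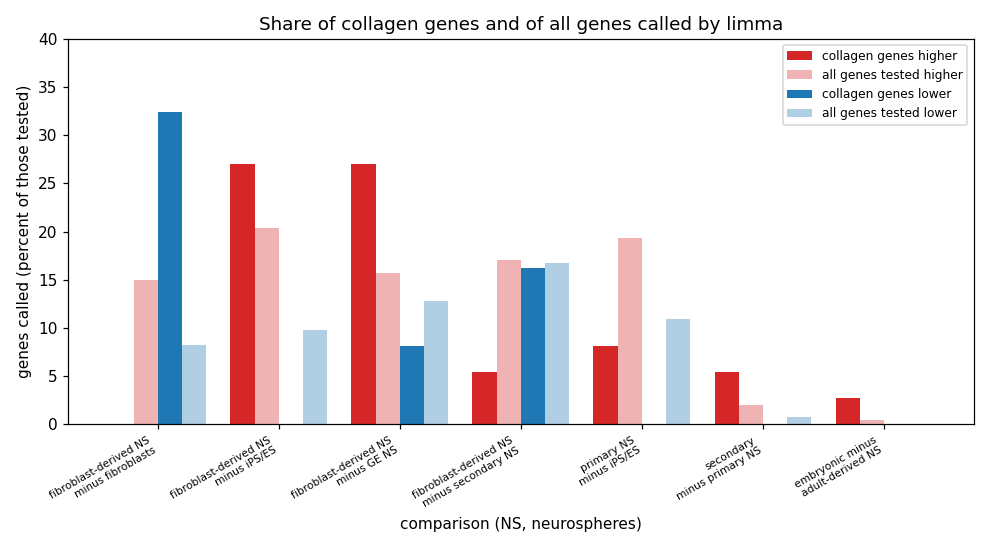
Percent of the 37 tested collagen genes (dark bars) and of all 13627 genes tested (pale bars) called higher (red) or lower (blue) in each of 7 comparisons. Bars start at 0. Collagens stand at 32.4% lower against the fibroblasts, where all genes stand at 8.23%.

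Genes that process, bind or break down collagen were read from a list of 50, of which 45 were on the arrays and 43 were tested. Against the fibroblasts 21 of the 43 (48.8%) fell and 3 (7.0%) rose in the fibroblast-derived neurospheres, where 8.23% of all genes fell and 15% rose. The group of folding and modifying enzymes fell in 10 of 17 cases and the group of propeptide removal and crosslinking in 5 of 9. Serpinh1, the collagen chaperone, read 5143 in the fibroblasts, 1077, 1475, 1141 and 787.7 on the fibroblast-derived arrays, 688.7 in iPS and 35.3 in ES cells. It read 324.5 and 570.4 in the primary, 806.2 and 1515 in the secondary and 927.7 in GE neurospheres, and was not called in any comparison. P4ha1, a subunit of prolyl 4-hydroxylase, read 1417 in the fibroblasts and 158.9, 212.3, 350.5 and 484.4 on the fibroblast-derived arrays, and fell by 2.34 ± 0.46 (adjusted p = 0.00910). It rose by 1.47 ± 0.36 against iPS and ES cells, which read 117.9 and 78.4 (adjusted p = 0.0166). Lox, a lysyl oxidase that crosslinks fibrils, read 7295 in the fibroblasts, 10.1, 177.6, 137.1 and 109.6 on the fibroblast-derived arrays and 1.8 to 162.7 on the others, and fell by 6.48 ± 1.46 (adjusted p = 0.0151). Loxl3, P4ha3, Fmod (fibromodulin), P4hb and Bmp1 (which trims propeptides) had the smallest adjusted p among those that fell, from 0.00226 to 0.00344, with differences of -3.70, -4.02, -4.09, -1.68 and -3.12.

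The discoidin domain receptors, tyrosine kinases activated by collagen, differed in opposite directions from the GE and secondary neurospheres and both rose against the pluripotent cells. Ddr1 read 747.7 in the fibroblasts, 1035, 1240, 1461 and 1541 on the fibroblast-derived arrays, 456.1 and 516.9 in iPS and ES cells, 2354 and 2082 in the primary, 2718 and 3385 in the secondary and 3918 in GE neurospheres. No groups overlapped: the fibroblast-derived arrays lay above the fibroblasts and pluripotent cells and below the other neurospheres. Its differences were 0.80 ± 0.20 against the fibroblasts, 1.42 ± 0.15 against the pluripotent cells, -1.58 ± 0.20 against GE and -1.22 ± 0.15 against the secondary neurospheres, with adjusted p of 0.0220, 0.000601, 0.000881 and 0.000735. The call against the fibroblasts was lost in 6 of 22 alternatives (differences of 0.31 to 1.0, adjusted p up to 0.417), among them a common median, the mean of probe sets and leaving out either embryonic-derived array. The other 3 held in all 22. Ddr2, the receptor typical of mesenchymal cells, read 791.4 in the fibroblasts, 280.3, 435.0, 262.4 and 279.8 on the fibroblast-derived arrays and 6.6 to 95.5 on all others. It rose by 4.16 ± 0.49 against the pluripotent cells, 3.25 ± 0.64 against GE and 2.37 ± 0.49 against the secondary neurospheres, with adjusted p of 0.000872, 0.00668 and 0.00747.

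In the other comparisons, 17 of the 43 (39.5%, against 20.4% of all genes) rose and 0 fell (against 9.79%) relative to the pluripotent cells (24 and 0 at an unadjusted p under 0.05 by limma), with 7 called without the ES cell array. Against GE 10 rose (23.3%, against 15.7% of all genes) and 2 fell (4.7%, against 12.8%), and 6 were called with the adult-derived pair alone. Against the secondary neurospheres 5 rose and 7 fell (11.6% and 16.3%), which is at or below the 17% and 16.7% of all genes, and 7 were called without the iPS-derived secondary array. Pcolce, an enhancer of propeptide removal, read 6147 in the fibroblasts, 1988, 4119, 2521 and 2117 on the fibroblast-derived arrays, 495.7 and 801.8 in iPS and ES cells, 16.4 and 117.2 in the primary, 92.5 and 654.1 in the secondary and 7.0 in GE neurospheres. It rose by 7.75 ± 1.08 against GE (adjusted p = 0.00140) and by 3.35 ± 0.83 against the secondary neurospheres (adjusted p = 0.0161). Loxl4 rose in 3 comparisons, by 3.02 ± 0.50 against the pluripotent cells, 3.18 ± 0.64 against GE and 3.48 ± 0.50 against the secondary neurospheres, with adjusted p of 0.00357, 0.00759 and 0.00127. Pcolce2 rose by 4.79 against GE and 4.02 against the secondary neurospheres, with adjusted p of 0.00120 and 0.000653, and Fmod rose by 2.95 against the pluripotent cells (adjusted p = 0.00255). P4ha3 and Bmp1 fell by 4.20 and 2.65 against the secondary neurospheres, with adjusted p of 0.000263 and 0.00108. In primary neurospheres against pluripotent cells 4 rose (Ddr1, Bmp1, P4ha3 and Adamts3) and 3 fell (Pcolce2, Pcolce and Crtap). These are 9.3% and 7.0%, below the 19.3% and 10.9% of all genes, and 4 were called without the iPS-derived primary array. In secondary against primary neurospheres Fmod rose by 4.03 and P4ha3 by 2.60 (4.7% of the list, against 2% of all genes), with adjusted p of 0.0113 and 0.0344. With line of origin as a block 7 genes of the list rose there. Between the embryonic-derived and adult-derived pairs 0 were called (6 higher and 1 lower at an unadjusted p under 0.05 by limma). Mmp2, a protease that cleaves type IV and denatured collagen, read 1817 in the fibroblasts, 31.1, 412.0, 195.1 and 305.3 on the fibroblast-derived arrays and 19.7 to 683.7 on the others, and was not called in any comparison.

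**Figure D5:**
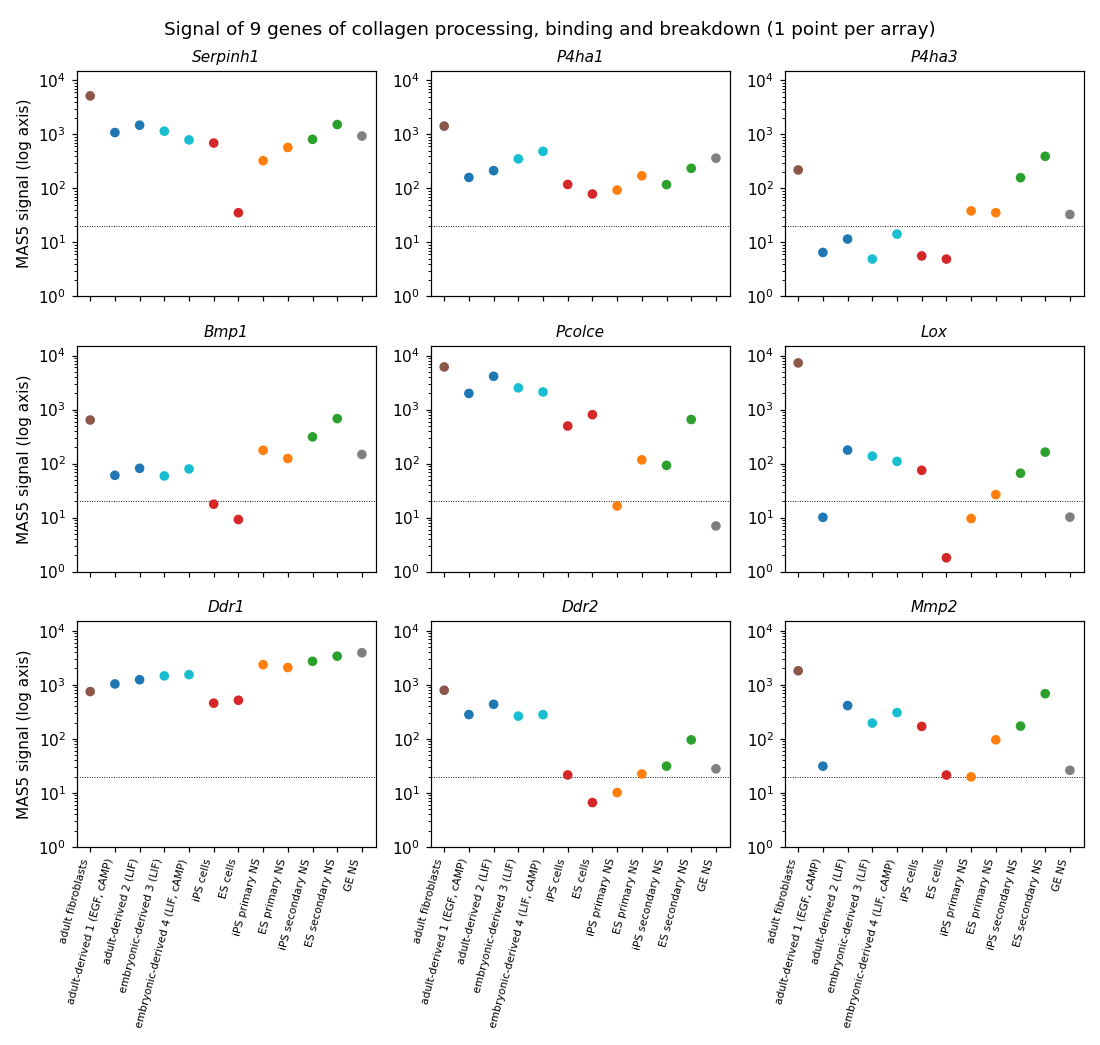
Signal of 9 genes of collagen processing, binding and breakdown on each array, 1 point per array, on a log axis. The dotted line marks a signal of 20. Ddr1 reads 3918 in GE neurospheres and 456.1 in iPS cells, and Ddr2 reads at least 262.4 on each fibroblast-derived array and at most 95.5 on the pluripotent and other neurosphere arrays.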

How the data were processed

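RNA of 12 mouse cultures was hybridised to Affymetrix arrays with 45101 probe sets. The authors deposited linear signal intensities. Per the submitters' processing notes, MAS5 and Affymetrix Expression Console 1.1 were used. Every array had a 2%-trimmed mean of 100, which hides changes in total RNA. Dim MAS5 signals are noisy, and the number of arrays limits the precision.

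Tests used log2(signal + 5) of the deposited intensity. Probe sets were named through the platform annotation, in which 34945 had 1 symbol, 932 had several and 9160 had none. Each gene was represented by its probe set with the highest mean signal, and kept at a signal of 20 on at least 1 array, which left 13627 of 18193 genes. A member kept through 1 bright group had to differ, so counts over kept members are descriptions. One fit of 7 groups (limma 3.58.1, R 4.3.3, empirical Bayes with an intensity trend, 5 residual degrees of freedom) gave Benjamini-Hochberg adjusted p-values over all genes. The scripts were tested on simulated data. Groups came from the labels.

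The members and lists were chosen with earlier results of these data known. Values on all arrays are given for the 3 members with the highest mean signal in each class and for up to 5 highest and 5 lowest called members of each comparison. From the list of processing, receptor and breakdown genes, the up to 5 called genes with the smallest adjusted p are named, with Serpinh1, P4ha1, Lox, Ddr1, Ddr2 and Mmp2. Other members named without a call, chain partners among them, were chosen after their values were seen.

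Replicate numbers pair iPS-derived and ES-derived arrays of the pluripotent, primary and secondary groups through the shared line. Deviations of same-line arrays from the group means correlated across genes at 0.25 between pluripotent and primary, 0.058 between pluripotent and secondary and 0.42 between primary and secondary arrays. Alternatives were 2 scalings, added values of 1 and 20, filters of none and 100, the mean of all probe sets, no intensity trend, the origin block, fits of the compared groups or of 1 fibroblast-derived pair alone, and leaving out single arrays. Promoter windows are from RefSeq (GRCm38.p6). Protein sequences were not used here.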

Additional observations from a re-analysis of the deposited data

Results flagged for a closer look

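Among the 4 fibroblast-derived arrays, 4 collagens had 1 array far from the other 3 by Dixon's criterion. Chance singles out about 1 in 20 such groups. Adult-derived replicate 1 was low for Col1a2 at 39.5 (gap over range 0.945), for Col5a3 at 12.6 (0.919) and for Col18a1 at 79.8 (0.849). Embryonic-derived replicate 3 was high for Col10a1, a cartilage collagen, at 27.7 (0.898), with the other 3 arrays at 0.5 to 1.6. Col10a1 passed the filter through that array alone, so its standing apart was set by the filter. Adult-derived replicate 1 was the array grown with EGF and cAMP.

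Col17a1 differed between the embryonic-derived and adult-derived pairs by 2.67 on the log2 scale, a direction set by the filter, which it passed through the embryonic-derived pair alone.

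Some collagens moved in opposite directions in the iPS and ES lines, with 1 array each, and the difference between lines was not tested. From pluripotent cells to primary neurospheres, Col1a2 differed by -2.70 in the iPS line and by 2.74 in the ES line on the log2 scale. From primary to secondary neurospheres, Col4a1 differed by -1.64 in the iPS line and 1.31 in the ES line, and Col4a2 by -1.31 and 1.23.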

How the results depend on the processing

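With 1 or 2 arrays a group and 5 residual degrees of freedom, dim collagens and those in which 1 array stands apart are weakly resolved. Of 148 recomputed collagen counts, 111 stayed within 1.5 times the reported count, and single-gene values kept direction and call in 1779 cases, lost the call in 163, gained it in 5 and changed sign in 10. The cause of these changes was not tested, except that leaving out arrays or groups leaves fewer arrays. For secondary against primary neurospheres, the count of 2 became 1 with quantile normalization, a common median, no filter, a filter at 100 or no intensity trend. It became 5 with log2(signal + 20), and 0 with log2(signal + 1) or with only those groups in the fit (11 and 8 at an unadjusted p under 0.05). For primary neurospheres against pluripotent cells, the count of 3 became 1 with log2(signal + 20) or only those groups, and 5 with the origin of the line as a replicate block. The call of Col17a1 between the fibroblast-derived pairs became 0 with log2(signal + 1), a filter at 100 or only those groups (5, 4 and 10 at an unadjusted p under 0.05). With the adult-derived pair alone, 5 collagens were called against pluripotent cells and 5 against secondary neurospheres. Against secondary neurospheres Col1a1 differed by -0.16 with log2(signal + 20), -0.17 with the mean of its probe sets and -0.065 with the adult-derived pair, and Col1a2 by -0.56 with that pair. Leaving out single arrays gave counts of 7 to 14 against the fibroblasts, 3 to 12 against pluripotent cells, 10 to 14 against GE and 6 to 11 against secondary neurospheres. It gave 0 to 6 for primary against pluripotent, 0 to 3 for secondary against primary and 0 to 1 for the fibroblast-derived pairs. Against secondary neurospheres it gave -1.98 to 2.38 for Col1a1, -1.39 to 2.54 for Col1a2 and -2.22 to 0.93 for Col3a1, with the lowest values without the iPS-derived and the highest without the ES-derived secondary array. With the pairing by origin no collagen call was lost, and 12 were gained over the 7 comparisons, as named beside the results, giving counts of 13, 13, 16 and 10 in the first 4 and 3 for secondary against primary. Over all genes, leaving out the ES cells moved the count against pluripotent cells from 4120 to 2098, and leaving out embryonic-derived replicate 3 moved that against the fibroblasts from 3171 to 2010. Without the iPS-derived or the ES-derived secondary array, the count against secondary neurospheres moved from 4590 to 2451 or 2430. Primary against pluripotent moved from 4112 to 1400 with only those groups, secondary against primary from 380 to 2, and the fibroblast-derived pairs from 64 to between 10 and 139.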
